A study of Mus musculus with 5 samples.

Results

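Chemokines are small secreted proteins that set up gradients along which leukocytes move, and the intestinal epithelium is one of their sources. Among the chemokines that gut epithelium makes, 7 genes are described here: Cxcl1, Cxcl5, Ppbp, Cxcl16, Ccl20, Ccl25 and Ccl28. They were chosen by name, with earlier results of these data known. All 7 had at least 1 unique molecular identifier (UMI, a random tag that marks 1 captured transcript) in the 5 libraries, of 18418 genes with a UMI in all. The fetal, het and Bud libraries held UMIs of 7 of the 7 genes, the Cys library of 6 and the WT library of 5.

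The libraries were single cells of mouse intestinal organoids, epithelial cultures grown in 3 dimensions, sorted into 384-well plates. They were organoids of fetal intestine with wild-type genotype (fetal), small intestinal organoids with wild-type genotype (WT), with genotype Lkb1 +/- (het), and a pair of Lkb1 -/- libraries whose titles carry the marks HomBud and HomCys (Bud and Cys). Lkb1, whose gene symbol is Stk11, encodes a kinase that acts upstream of AMP-activated protein kinase and its relatives and is a tumour suppressor. The labels do not explain the marks Bud and Cys, do not say which part of Lkb1 was edited or how many clones each line came from, and give no age for the fetal intestine. All 5 entries state the same medium, which held Egf, R-spondin1 and Noggin, and name no cytokine, microbial product or co-cultured cell.

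Each group was 1 plate, so every interval below is an exact 95% interval that covers counting error only, no p-value is given, and plate and group cannot be told apart. A level is the number of UMIs of a gene per 1000000 UMIs (CPM), summed over the wells of a library that held at least 1000 UMIs. Since 1 tag near the 3′ end of a transcript is counted, a level does not scale with transcript length. A gene was called higher or lower when the CPM ratio was at least 1.5 in either direction and its interval excluded 1, among genes with at least 10 UMIs over both libraries. Where a library had no UMI of a gene, its level was set to a floor of 3 UMIs and the fold is given as "at least"; the lower limit of the exact interval of such a ratio lies below it.

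The wells kept numbered 302 to 371 per library and held 4035219 to 5865507 UMIs, with a median of 10414 to 14637 UMIs per well. Stk11 was at 16.0 CPM in fetal, 20.6 in WT, 14.1 in het, 11.7 in Bud and 9.03 in Cys; its 3′ tags need not lie in the edited part and do not check the genotype. Wells with over 2% of their UMIs from the nuclear RNA Kcnq1ot1 numbered 2 in fetal, 22 in WT, 60 in het, 43 in Bud and 22 in Cys. The 6 epithelial genes used as a check (Epcam, Cdh1, Krt8, Krt18, Krt19 and Cldn7) summed to 4840 to 6281 CPM. The 10 immune cell genes summed to 6.14 to 28.6 CPM, most of it from Cd68 and Itgam, with Ptprc at 3 UMIs in fetal and at 0 in the other libraries. The 8 mesenchymal genes summed to 0.991 to 2.73 CPM. Of the 6 endothelial genes only Tek stood out, at 333 CPM in Cys, with Pecam1 and Cdh5 at 2 UMIs or fewer in every library.

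The chemokines described here act through different receptors. Cxcl1, Cxcl5 and Ppbp bind Cxcr2 and draw neutrophils, and Cxcl1 and Ccl20 are textbook targets of the transcription factor NF-kappa-B. Ccl20 binds Ccr6 and is made by the epithelium over lymphoid follicles, Ccl25 binds Ccr9 and guides lymphocytes to the small intestine, Ccl28 binds Ccr10 and draws antibody-secreting cells to mucosae, and Cxcl16 is made as a membrane protein that proteases shed and that binds Cxcr6.

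The 7 genes lie on 5 chromosomes of GRCm38. Cxcl5 (ENSMUSG00000029371.7), Ppbp (ENSMUSG00000029372.7) and Cxcl1 (ENSMUSG00000029380.11) lie on the plus strand in a cluster on chromosome 5, Cxcl5 at chr5:90759360-90761624, Ppbp at chr5:90768518-90770063 and Cxcl1 at chr5:90891241-90893115. Cxcl5 and Ppbp are neighbours with 6893 bp between them, while the nearest listed chemokine gene before Cxcl1, Cxcl15, ends 88173 bp upstream of it. Cxcl16 (ENSMUSG00000018920.11) is on the minus strand at chr11:70453983-70459984, where its 5′ end overlaps Zmynd15 on the other strand. Ccl20 (ENSMUSG00000026166.14) is at chr1:83116766-83119167, Ccl25 (ENSMUSG00000023235.14) at chr8:4325210-4360020, overlapping the minus-strand gene Elavl1 at its 5′ end, and Ccl28 (ENSMUSG00000074715.3) at chr13:119623819-119654359, all on the plus strand. Whether reads were counted by strand is not known here, and reads in these overlaps cannot be assigned to 1 gene with certainty.

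Promoter sequences from RefSeq (GRCm38.p6) matched 5 of the 7 genes; Cxcl5 and Cxcl16 had no entry. Shown are the 250 bases before the start of Cxcl1 and Ccl20, whose levels went with that of Cxcl5 among fetal wells, of Ppbp, which was close to Cxcl5 in level and followed it less, and of Ccl25, the gene with the opposite pattern across libraries, at the downstream of its listed starts. Capitals mark a match to the kappa-B consensus in Cxcl1 and Ccl20, to the AP-1 motif TGANTCA and to TATAAA in Ppbp, and to TATAAA in Ccl25. All 4 are on the plus strand and read 5′ to 3′, from chr5:90890995-90891244 for Cxcl1, chr1:83116516-83116765 for Ccl20, chr5:90768268-90768517 for Ppbp and chr8:4349338-4349587 for Ccl25.
Cxcl1: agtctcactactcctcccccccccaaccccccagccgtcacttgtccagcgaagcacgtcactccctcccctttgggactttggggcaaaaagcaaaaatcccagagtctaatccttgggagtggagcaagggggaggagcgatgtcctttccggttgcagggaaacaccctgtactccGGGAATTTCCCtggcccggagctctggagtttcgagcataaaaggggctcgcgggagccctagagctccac
Ccl20: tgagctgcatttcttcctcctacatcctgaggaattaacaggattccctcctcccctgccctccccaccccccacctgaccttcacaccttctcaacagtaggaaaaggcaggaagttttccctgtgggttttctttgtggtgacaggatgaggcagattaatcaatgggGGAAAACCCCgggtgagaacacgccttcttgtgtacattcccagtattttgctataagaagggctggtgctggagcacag
Ppbp: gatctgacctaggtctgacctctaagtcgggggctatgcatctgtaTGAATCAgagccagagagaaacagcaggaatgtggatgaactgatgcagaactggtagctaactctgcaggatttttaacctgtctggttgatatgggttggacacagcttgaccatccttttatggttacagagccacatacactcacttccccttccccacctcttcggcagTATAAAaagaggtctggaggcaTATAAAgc
Ccl25: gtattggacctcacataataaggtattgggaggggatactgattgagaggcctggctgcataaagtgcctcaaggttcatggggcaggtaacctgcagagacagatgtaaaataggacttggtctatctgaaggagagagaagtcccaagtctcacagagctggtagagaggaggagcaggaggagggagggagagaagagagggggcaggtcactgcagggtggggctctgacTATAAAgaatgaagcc

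The kappa-B consensus was present in 7.25% of the 32851 RefSeq windows of this length, searched on both strands. It matched Cxcl1 71 to 61 bases before the start, as overlapping matches on both strands, and Ccl20 80 to 71 bases before the start on the minus strand. TGANTCA, present in 6.75% of windows, matched Ppbp 204 to 198 bases before the start. TATAAA, present in 12.4% of windows, matched Ppbp at 30 to 25 and again at 8 to 3 bases before the start, and Ccl25 at 16 to 11. None of the 3 motifs matched the window of the upstream Ccl25 start or that of Ccl28. These are matches of letters, and binding was not measured.

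The 3 Cxcr2 ligands had their highest level in the fetal library. Cxcl5 had 6374 UMIs in the fetal library, 0 in WT, 5 in het, 2 in Bud and 82 in Cys. That is 1087 CPM in fetal (1060 to 1114), 0 in WT, 1.14 in het, 0.476 in Bud and 16.5 in Cys (13.1 to 20.4). Cys was the only library besides fetal with more than a handful of Cxcl5 transcripts, and it was 66.0-fold below fetal (53.1 to 83.1). Against the floor of 3 UMIs in WT, which is 0.743 CPM, Cxcl5 was at least 1462-fold higher in fetal and at least 22.1-fold higher in Cys. The exact intervals of these ratios begin at 1188 and 17.6. In Cys, 21 of the 82 UMIs came from 1 well, and without it the level was 12.3 CPM and at least 16.6-fold higher than in WT. Het, Bud and WT did not differ beyond counting error.

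Ppbp encodes the precursor of the platelet chemokines known as connective tissue activating peptide and neutrophil activating peptide, and is best known from megakaryocytes. It had 5549 UMIs in fetal, 0 in WT, 2 in het, 1 in Bud and 0 in Cys, or 946 CPM in fetal (921 to 971) and at most 0.455 CPM in any other library. No other of the 7 genes was so restricted to 1 library in its counts. The fetal level was at least 1272-fold above WT and at least 1571-fold above Cys against the floor, with exact lower limits of 1035 and 1277. The other platelet and megakaryocyte genes in the fetal library were low: Gp1ba, Gp9, Gp6 and Treml1 had 0 UMIs, Pf4 and Gp1bb had 1 each, and the integrin genes Itga2b and Itgb3 were at 8.35 and 6.31 CPM. Of the 3 genes of this list tested against WT, Itga2b (49 against 1 UMIs) and Itgb3 (37 against 0) were called higher in fetal, as Ppbp was, and Gp1bb (1 against 240) was called lower. The list of 8 genes summed to 59.7 CPM in WT, nearly all from Gp1bb, and to less in fetal, and its part in the level of Ppbp was not tested. Pf4, the other platelet chemokine, lies 2371 bp downstream of Ppbp.

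Cxcl1 encodes a neutrophil chemokine also called KC. It had 618 UMIs in fetal, 2 in WT, 5 in het, 15 in Bud and 4 in Cys, or 105 CPM in fetal (97.2 to 114), 0.496 in WT, 1.14 in het, 3.57 in Bud and 0.803 in Cys. Fetal was far above the rest, at 213-fold over WT (58.6 to 1759). In fetal, 104 of the 618 UMIs came from 1 well, and without it the level was 87.8 CPM. Bud came second at 7.21-fold over WT (1.68 to 64.9), from 15 UMIs in 8 wells, and het, Cys and WT could not be told apart. Cxcl2, the gene next to Cxcl1 and the other classic neutrophil chemokine of the cluster, had 19 UMIs in fetal and 20 in Cys, 90.0% of the latter from 1 well, and none in WT, het or Bud. Cxcl3 and Cxcl15, which lie between Pf4 and Cxcl1, had no UMI in any library.

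Cxcl16 was detected in all libraries. It had 810 UMIs in fetal, 21 in WT, 31 in het, 44 in Bud and 193 in Cys, or 138 CPM in fetal (129 to 148), 38.7 in Cys (33.5 to 44.6), 10.5 in Bud (7.61 to 14.1), 7.05 in het (4.79 to 10.0) and 5.20 in WT (3.22 to 7.96). The order was fetal, Cys, then Bud, het and WT. Bud and het, and het and WT, did not differ beyond counting error, while Bud was 2.01-fold over WT (1.17 to 3.56) in summed UMIs. Fetal exceeded Cys 3.56-fold (3.04 to 4.19) and Cys exceeded WT 7.44-fold (4.74 to 12.3). In Cys, Cxcl16 was the most abundant of the 7 chemokines and was found in 106 of 359 wells.

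Ccl20 also followed the order fetal, Cys, Bud, het, WT in summed UMIs, and each neighbour in that order differed beyond counting error. It had 395 UMIs in fetal, 12 in WT, 37 in het, 56 in Bud and 117 in Cys, or 67.3 CPM in fetal (60.9 to 74.3), 23.5 in Cys (19.4 to 28.1), 13.3 in Bud (10.1 to 17.3), 8.42 in het (5.93 to 11.6) and 2.97 in WT (1.54 to 5.19). A few wells carried much of this: 41 of the 56 UMIs in Bud, 13 of the 37 in het and 28 of the 117 in Cys came from 1 well each. Without the highest well the level was 3.58 CPM in Bud, 5.48 in het and 18.0 in Cys. The place of Bud above het thus rested on 1 well, and the place of Cys above both did not. Ccl20 was found in 9 of 302 WT wells (2.98%, 1.37 to 5.58) and 12 of 351 het wells (3.42%, 1.78 to 5.90). For Bud it was 14 of 318 wells (4.40%, 2.43 to 7.28). These shares overlap in their intervals, so no step between WT, het and Bud was seen in the share of wells.

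Ccl25 had the opposite pattern. It had 44 UMIs in fetal, 2022 in WT, 2391 in het, 2062 in Bud and 34 in Cys, or 544 CPM in het (522 to 566), 501 in WT (479 to 523), 491 in Bud (470 to 513), 7.50 in fetal (5.45 to 10.1) and 6.83 in Cys (4.73 to 9.54). The libraries fell into a high set of WT, het and Bud and a low set of fetal and Cys with no value between. Bud over WT was 0.980 (0.921 to 1.04) and fetal over Cys was 1.10 (0.687 to 1.77), both within counting error (the latter 0.687 with every well weighted equally), while WT was 66.8-fold over fetal (49.6 to 92.2) and Bud was 71.9-fold over Cys (51.3 to 104). Het was 1.09-fold over WT (1.02 to 1.15) in summed UMIs, but with every well weighted equally it was 0.861 of WT, so the order of these libraries depended on the weighting.

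Ccl28 was the only one of the 7 genes at a similar level in fetal and WT. It had 224 UMIs in fetal, 165 in WT, 76 in het, 74 in Bud and 21 in Cys, or 40.9 CPM in WT (34.9 to 47.6), 38.2 in fetal (33.4 to 43.5), 17.6 in Bud (13.8 to 22.1), 17.3 in het (13.6 to 21.6) and 4.22 in Cys (2.61 to 6.44). It stepped down from fetal and WT to het and Bud and again to Cys. Fetal over WT was 0.934 (0.760 to 1.15) and Bud over het 1.02 (0.730 to 1.42), both within counting error. WT was 2.37-fold over het (1.79 to 3.15), and fetal was 9.06-fold over Cys (5.78 to 14.9), or 4.83-fold with every well weighted equally. No well held more than 6 of its UMIs.

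**Figure D1:**
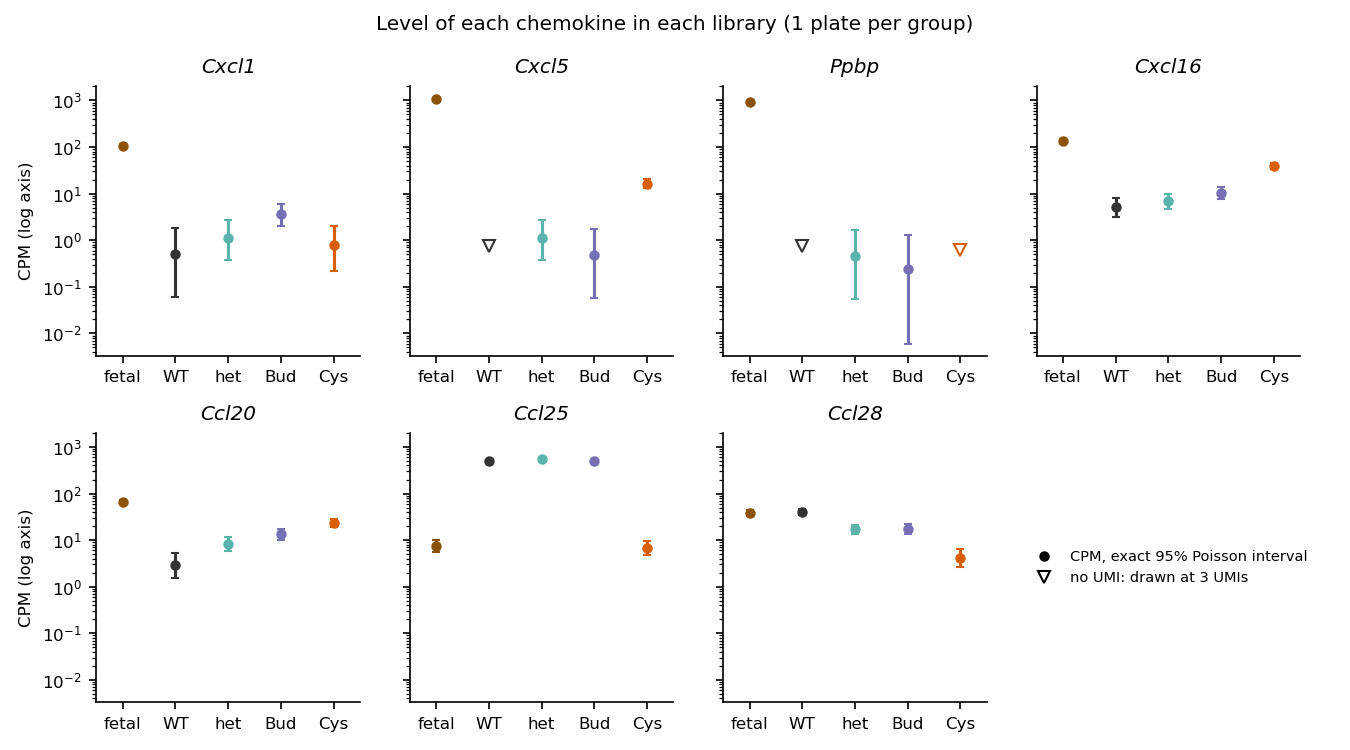
Level of each of the 7 chemokines (CPM, log axis) in the 5 libraries, 1 plate each; bars are exact 95% Poisson intervals and open triangles mark a library with no UMI, drawn at 3 UMIs. Cxcl1, Cxcl5, Ppbp, Cxcl16 and Ccl20 are highest in fetal, Ccl25 is at 491 to 544 CPM in WT, het and Bud and at 6.83 to 7.50 CPM in fetal and Cys, and Ccl28 is lowest in Cys.

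Set against WT, fetal organoids had 5 chemokines called higher (Cxcl1, Cxcl5, Ppbp, Cxcl16 and Ccl20) and 1 called lower (Ccl25), of 7 tested. Over all genes tested, 51.7% were called in this comparison, 29.4% higher and 22.3% lower, so a call as such was common. The median log2 ratio with 10 CPM added was 3.28 over the 7 chemokines and 0.06 over all 12534 genes tested. That median is the value of Cxcl16, so the exact ratios of Cxcl5 and Ppbp, for which WT had no UMI, do not affect it. Cxcl1, Cxcl5 and Ppbp reached the minimum of 10 UMIs through fetal alone.

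In Cys against WT, 3 chemokines were called higher (Cxcl5, Cxcl16 and Ccl20) and 2 lower (Ccl25 and Ccl28), of 5 tested, against 39.7% of all genes tested called (17.6% higher, 22.0% lower). Cxcl1 and Ppbp had too few UMIs to be tested in this pair. The folds were at least 22.1 for Cxcl5, 7.44 for Cxcl16 and 7.90 for Ccl20 (4.35 to 15.7), while WT was 9.70-fold over Cys for Ccl28 (6.14 to 16.1). The median log2 ratio over the 5 chemokines was 1.37, which is the value of Ccl20, from 117 against 12 UMIs. Cxcl5 reached the minimum of 10 UMIs through Cys alone. Over all genes tested the median was -0.06.

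In Bud against WT, where 14.5% of all genes tested were called (5.79% higher, 8.67% lower), 3 of 5 chemokines were called higher (Cxcl1, Cxcl16 and Ccl20) and 1 lower (Ccl28), and Ccl25 was not called. Cxcl16 was 2.01-fold over WT (1.17 to 3.56) in summed UMIs and 1.11-fold with every well weighted equally, where it lost its call. Ccl20 was 4.48-fold over WT (2.38 to 9.19), and without the highest well of each library 1.59-fold and no longer called. WT was 2.32-fold over Bud for Ccl28 (1.75 to 3.09). The median log2 ratio was 0.37 over the 5 chemokines and -0.04 over all genes tested.

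In het against WT, 17.3% of all genes tested were called (8.43% higher, 8.83% lower). Ccl20 was called higher, at 2.83-fold (1.44 to 5.96), from 37 against 12 UMIs in 12 and 9 wells. Ccl28 was called lower, and Cxcl16 and Ccl25 were not called. The 3 comparisons of Lkb1-edited organoids share the WT library. Ccl20 and Ccl28 were called in each of them, and since the WT counts were 12 and 165 UMIs in 1 plate, the comparisons are not independent. Set against het in its place, Cys had the same 5 genes called in the same directions, with 40.2% of all genes tested called (18.9% higher, 21.3% lower). Bud had Cxcl1 (3.14-fold, 1.08 to 11.0) and Ccl20 (1.58-fold, 1.03 to 2.47) called higher and none lower, with 20.7% of all genes called (8.94% higher, 11.7% lower). The Ccl20 call of Bud over het rested on 1 well, and without the highest well of each library the direction turned, at 3.58 CPM in Bud and 5.48 in het.

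The Lkb1 -/- libraries differed from each other in 6 of 6 chemokines tested. Cxcl5 (34.6-fold, 9.27 to 290), Cxcl16 (3.70-fold, 2.65 to 5.25) and Ccl20 (1.76-fold, 1.27 to 2.47) were higher in Cys, and Cxcl1 (4.45-fold, 1.42 to 18.4), Ccl25 and Ccl28 (4.18-fold, 2.55 to 7.15) were higher in Bud. Over all genes tested, 38.7% were called between these libraries, 19.2% higher and 19.5% lower in Cys. With the highest well of each library left out, Ccl20 was 5.03-fold higher in Cys.

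Cys and fetal, the libraries low in Ccl25, were set side by side as well. Against fetal, 6 of 7 chemokines were called lower in Cys and Ccl25 was not called, where 44.6% of all genes tested were called, 16.0% higher and 28.6% lower. The fetal excess ranged from 2.87-fold for Ccl20 (2.33 to 3.55) and 3.56-fold for Cxcl16 to 131-fold for Cxcl1 (51.0 to 483) and at least 1571-fold for Ppbp. The genes of a list of fetal and regenerative epithelium (Clu, Ly6a, Anxa1 and others, 12 genes) summed to 16433 CPM in fetal and 13253 in Cys, and to 474 in WT, 495 in het and 1036 in Bud. Cys was thus closer to fetal than to the other libraries in the sum of that list, and far from fetal in Cxcl1, Cxcl5 and Ppbp. Gene by gene the list differed too. Of its 11 genes tested, 3 were called higher in Cys than in fetal and 6 lower. Il33 was at 1518 CPM in Cys and 240 in fetal, and Spp1 at 2.21 and 1375.

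The share of wells with at least 1 UMI was taken next. In fetal, Ppbp was found in 86.8% of 371 wells (82.9 to 90.1), Cxcl5 in 82.2% (77.9 to 86.0), Cxcl16 in 73.0%, Ccl28 in 35.3%, Cxcl1 in 31.0%, Ccl20 in 26.7% and Ccl25 in 8.63%. Ccl25 was found in 78.5% of WT wells, 67.0% of het wells and 77.7% of Bud wells, and in 6.96% of Cys wells. Cxcl16 was found in 29.5% of Cys wells and in 6.29% to 7.86% of WT, het and Bud wells. Of Cxcl5 and Ppbp, 0 of 302 WT wells had a UMI, which allows a share of wells with a UMI of up to 0.993% at the floor of 3 wells (the Clopper-Pearson interval reaches 1.21%) and does not limit the share of cells that express them.

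Since a deeper well is likelier to show a UMI, each well was also thinned to 1000 UMIs, which left out no kept well. Thinned, Ppbp was found in 41.8% of fetal wells, Cxcl5 in 38.0%, Cxcl16 in 11.6%, Ccl20 in 6.47%, Cxcl1 in 4.85%, Ccl28 in 1.89% and Ccl25 in 0.539%. Ccl25 was found in 33.8% of WT wells, 28.5% of het wells and 31.1% of Bud wells. For Ccl20, Cxcl1 and Ccl28 in the libraries other than fetal, thinned shares came from 0 to 11 wells, and no order was read from them.

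**Figure D2:**
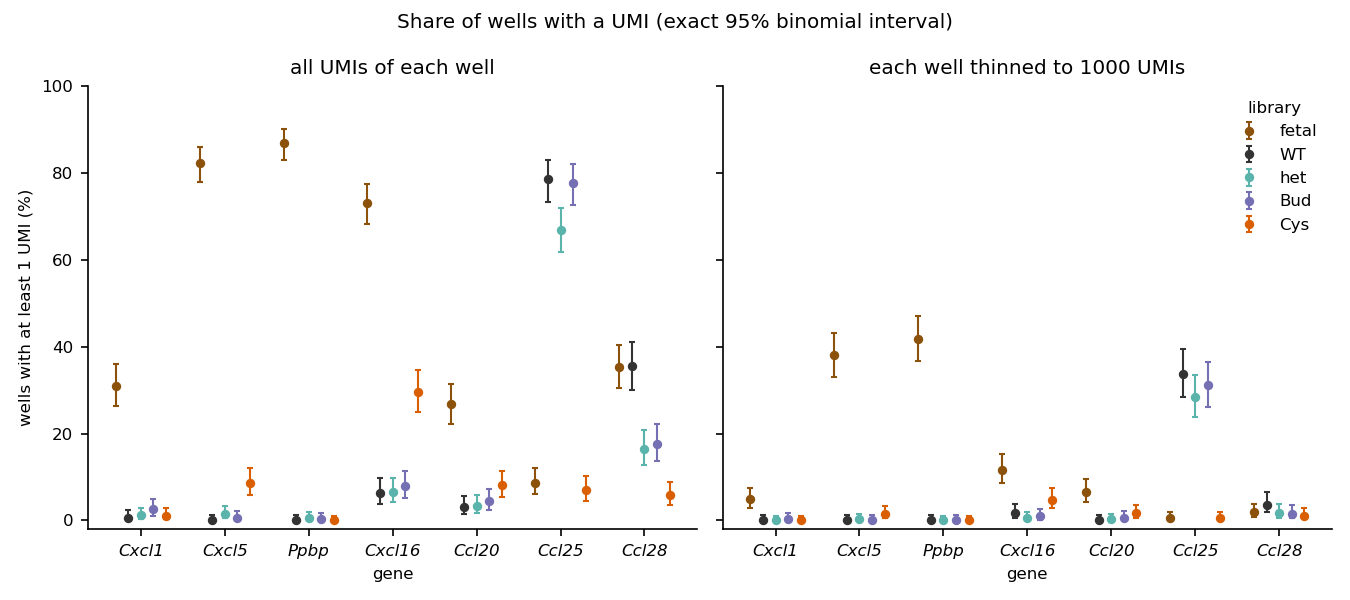
Share of wells with at least 1 UMI of each chemokine (y axis, percent) by library, from all UMIs of a well (left) and after thinning each well to 1000 UMIs (right); bars are exact 95% binomial intervals. Cxcl5 and Ppbp in fetal, and Ccl25 in WT, het and Bud, stay at 28.5% of wells or more after thinning, and all other thinned shares are 11.6% or less.

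Fetal wells usually held several of these chemokines. Of 371 fetal wells, 114 had UMIs of 3 of the 7 genes, 106 of 4, 51 of 5, 22 of 6 and 1 of all 7, while 8 had none. In WT 18.9% of wells had none and 43.4% had 1, mostly Ccl25, and in Cys 52.9% had none. The median depth was 14637 UMIs per well in fetal, 12287.5 in WT and 10414 in Cys.

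The spread between wells was wide. Across all fetal wells Cxcl5 had a median of 329 CPM, an interquartile range of 83.5 to 1301 CPM and a highest well at 15928 CPM, and the top 38 wells held 52.8% of its UMIs. Ppbp had a median of 403 CPM, an interquartile range of 129 to 979 and a highest well at 10777 CPM, and the top 38 wells held 54.1%. Cxcl1 and Ccl20 had a median of 0, and the top 38 wells held 79.4% and 78.7% of their UMIs. Ccl28 reached at most 428 CPM in a fetal well. Ccl25 in WT was more even, with a median of 377 CPM, an interquartile range of 129 to 609, a highest well at 2440 CPM and 38.8% of its UMIs in the top 31 wells. In het the median was 224 CPM, the lower quartile 0 and the highest well 3102 CPM, with 53.9% of the UMIs in the top 36 wells, against 38.2% in the top 32 wells of Bud.

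**Figure D3:**
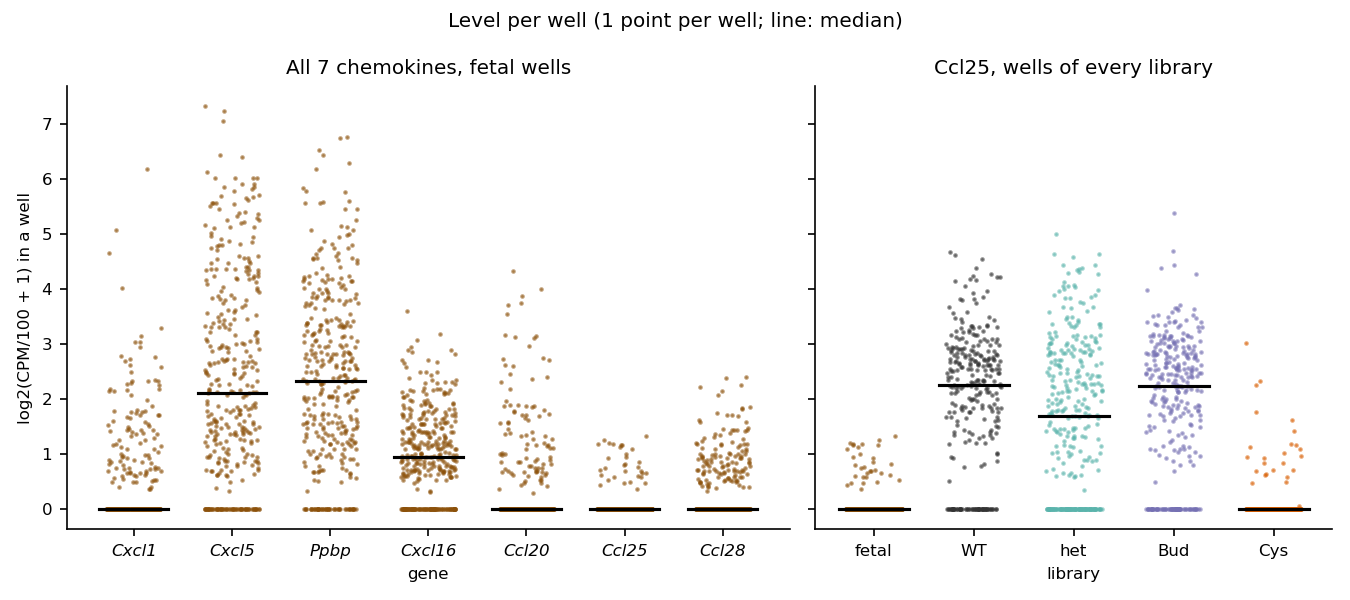
Level in each well, as log2(CPM/100 + 1), of the 7 chemokines in the fetal library (left) and of Ccl25 in the 5 libraries (right); each point is a well and the line is the median. Cxcl5 and Ppbp extend over the widest range in fetal, and the het wells have the lowest Ccl25 median (224 CPM) of the 3 libraries rich in it.

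Among fetal wells, Cxcl5 was higher where Cxcl1 or Ccl20 was present, and Ppbp followed them less. In the 115 wells with a UMI of Cxcl1, Cxcl5 was at 1711 CPM, against 754 CPM in the other 256. In the 99 wells with Ccl20, Cxcl5 was at 1777 CPM, against 800 CPM in the rest. The 131 wells with Ccl28 also had more Cxcl5, at 1370 CPM against 900 CPM in the others. After thinning, 5 of 7 wells with Ccl28 had Cxcl5 (71.4%, against 37.4%). Cxcl1 was at 182 CPM in wells with Ccl20 and at 73.6 CPM in the rest, where 1 fetal well held 104 of its 618 UMIs. Wells with Cxcl1 were somewhat deeper (median 17047 against 13444.5 UMIs), and after thinning 16 of the 18 wells with Cxcl1 also had Cxcl5 (88.9%, against 35.4% of the other wells). For Ccl20 it was 15 of 24 (62.5%, against 36.3%). Cxcl1 was found in 1 of these 24 thinned wells with Ccl20 (4.17%, against 4.90% of the others). The excess of Cxcl1 with Ccl20 was thus not seen after thinning, from few wells. Ppbp was at 1149 CPM in wells with Cxcl1 and at 838 CPM in the others, and at 917 CPM in wells with Ccl20 against 958 CPM. In the 305 wells with Cxcl5 it was at 1001 CPM, against 621 CPM in the other 66, which were shallower (median 15328 against 11502.5 UMIs). After thinning, Ppbp was present in 38.9% of wells with Cxcl1 against 41.9% of the others, and in 44.0% of wells with Cxcl5 against 40.4%. Cxcl5 and Ppbp, neighbours on the chromosome and close in level, thus overlapped little more than their shares after thinning.

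**Figure D4:**
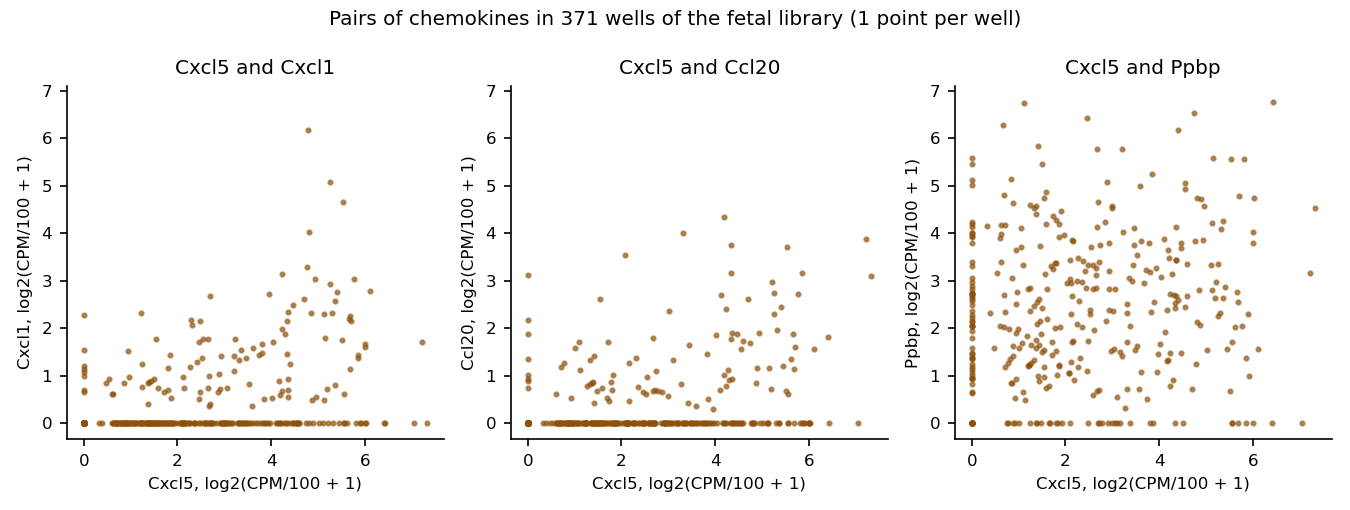
Level of Cxcl1, Ccl20 and Ppbp (y axes) against that of Cxcl5 (x axes) in the 371 wells of the fetal library, as log2(CPM/100 + 1); each point is a well. Wells high in Cxcl1 or Ccl20 lie mostly to the right, with Pearson r of 0.40 and 0.34, and Ppbp shows little relation (0.13).

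The genes most like each chemokine across wells were ranked by Pearson correlation on log2(CPM/100 + 1), over the wells of 1 library and up to 9018 genes. All wells of a library share its preparation, and depth enters every value. For Cxcl1 in fetal they were Cxcl5 (0.40), the stress-response gene Ier3 (0.29) and Nfkbia (0.28), the NF-kappa-B inhibitor that NF-kappa-B itself induces, with Ccl20 at rank 6. For Cxcl5 they were Cd14 (0.43), a co-receptor for bacterial lipopolysaccharide, Cxcl1 (0.40) and Tnfaip2 (0.39), a gene induced by tumour necrosis factor. For Ccl20 they were Cxcl5 (0.34), Cd14 (0.27) and Neurl3 (0.27), with Cxcl1 at rank 5. Each of these 3 chemokines thus had the other two among its 6 most alike genes. In Cys, Ccl20 and Cxcl5 had an r of 0.33, from 29 and 31 wells with a UMI, 8 of them shared.

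Ppbp had other company. Its most alike genes in fetal were Actb (0.50), cytoskeletal actin, F2r (0.46), the thrombin receptor, and Ly6a (0.46), a surface antigen of fetal and regenerating gut epithelium, and Cxcl5 came at rank 980. F2r was at 514 CPM in fetal and at 0 to 18.3 CPM elsewhere. Cxcl16 was most like Tnfrsf12a (0.33), the receptor of the cytokine TWEAK, Cyr61 (0.33), a target of YAP signalling, and Actn1 (0.31), an actin crosslinker. Ccl25 in het was most like Mttp (0.68), which loads lipid onto lipoproteins in enterocytes, Cyp2c65 (0.66) and Mgst1 (0.65), and the same genes had an r of 0.36, 0.39 and 0.45 in WT and of 0.38, 0.35 and 0.60 in Bud. For Ccl28 in WT the highest values were 0.36 for Bard1, 0.32 for Prmt3 and 0.30 for Mut, and in the other libraries Bard1 stood between -0.02 and 0.14.

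Ccl25 was then set against lists of cell type markers, within a library. The 25% of wells with the highest summed level of a list are a range of wells and not a cell type. In WT, Ccl25 was at 823 CPM (768 to 880) in the top 25% of wells for 15 enterocyte markers and at 393 CPM (371 to 416) in the other wells. In het it was at 1191 CPM (1132 to 1252) and 274 CPM (256 to 293), and in Bud at 708 CPM (660 to 758) and 410 CPM (387 to 433). The excess in enterocyte-rich wells was 2.10-fold in WT, 4.35-fold in het and 1.73-fold in Bud. For 10 goblet markers it went the other way, with 351 against 530 CPM in WT, 205 against 615 in het and 164 against 535 in Bud, though the goblet-rich wells were shallower (median 5018.5 against 14546.5 UMIs in WT). The part of depth in this was not tested.

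Across libraries Ccl25 and the enterocyte list did not move in step. The list summed to 4027 CPM in WT, 7491 in het and 1611 in Bud, where Ccl25 was at 491 to 544 CPM in each. It summed to 122 CPM in fetal and 284 in Cys, where Ccl25 was at 7.50 and 6.83 CPM. In summed counts of a plate, fewer cells of a type and less RNA per cell cannot be told apart, and the part that cell makeup has in the levels of Ccl25 was not tested.

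**Figure D5:**
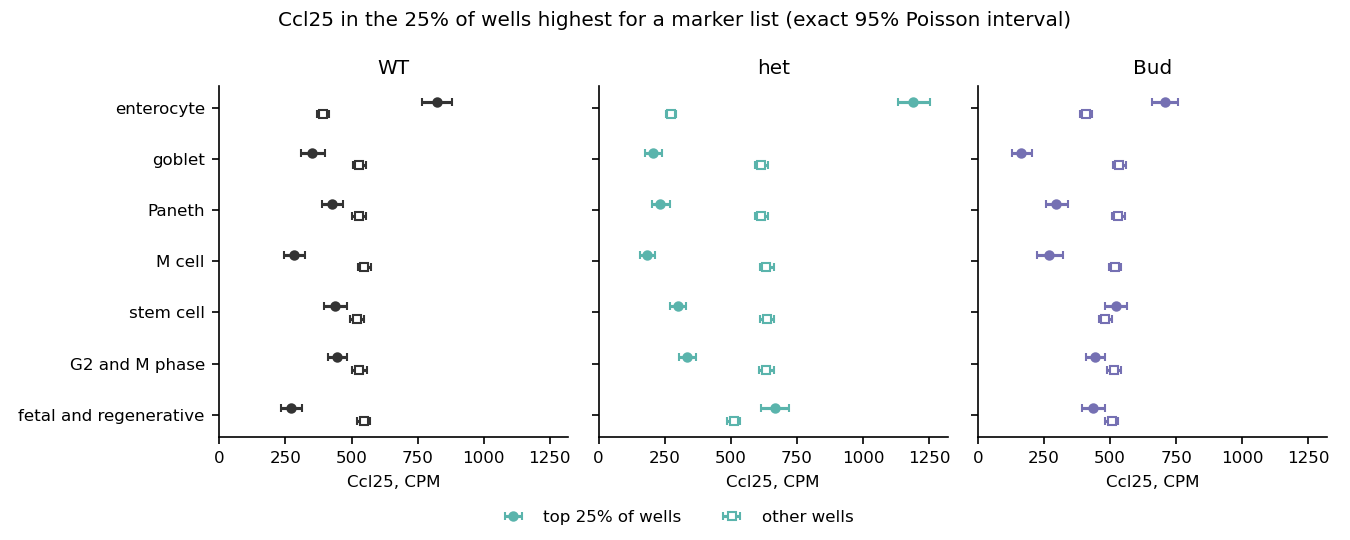
Ccl25 level (x axis, CPM) in the 25% of wells with the highest summed level of each marker list (filled circles) and in the other wells (open squares), in WT, het and Bud; bars are exact 95% Poisson intervals. Ccl25 is higher in the enterocyte-rich wells in all 3 libraries and lower in the top wells for the goblet, Paneth and M cell lists.

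In fetal the other chemokines were not spread evenly over such wells either. Ppbp was at 1763 CPM in the top 25% of wells for the fetal and regenerative list and at 676 CPM in the rest (2.61-fold, 2.47 to 2.75), and at 381 against 1109 CPM for the Paneth list, whose summed level in fetal was nearly all Mmp7 (660 CPM). Cxcl16 followed Ppbp in the first of these, at 212 against 114 CPM (1.87-fold, 1.62 to 2.16). For the epithelial list the excess was nearly as large, with Ppbp at 1636 against 712 CPM and Cxcl16 at 202 against 116 CPM. The excess was thus not particular to the fetal and regenerative list, which also holds Ly6a, one of the genes most like Ppbp in these wells. Cxcl5 was at 1669 against 904 CPM for the M cell list (1.85-fold, 1.75 to 1.94). That list summed to 1166 CPM in fetal, 414 of it from Tnfaip2, one of the genes most like Cxcl5 in these wells. Of its other genes, Gp2 and Sox8 had 0 UMIs and Spib 2. Ccl20 was at 115 against 51.7 CPM for the immune cell list (2.22-fold, 1.81 to 2.72). That list summed to 28.6 CPM in fetal, 24.9 of it from Cd68, a lysosomal glycoprotein of macrophages, which was called higher in fetal than in WT (2.23 CPM), and Lyz2 was at 0 and Ptprc at 3 UMIs; its part in the level of Ccl20 was not tested. Ccl28 was at 59.5 against 31.5 CPM for the goblet list (1.88-fold, 1.42 to 2.49), which summed to only 43.8 CPM in fetal, 31.9 of it from Spink4, with Muc2, Tff3 and Agr2 at 0 and 6 of the 10 genes under 1 CPM. For the epithelial list Ccl28 was at 17.5 against 45.2 CPM. Cxcl1 was at 53.5 against 123 CPM for the enterocyte list, where 104 of the 538 UMIs of the other wells came from 1 well. That list summed to 122 CPM in fetal, 114 of it from Vil1, with 12 of the 15 genes under 1 CPM. In Bud, Cxcl16 was at 36.5 against 3.61 CPM for the fetal and regenerative list (10.1-fold, 5.07 to 21.6, from 32 and 12 UMIs), in het at 16.8 against 4.36, in WT at 12.2 against 3.85, and in Cys at 40.2 against 38.2.

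The counts of called genes in the lists that follow are to be read against the shares over all genes tested against WT, which were 29.4% higher and 22.3% lower in fetal, 17.6% and 22.0% in Cys, 5.79% and 8.67% in Bud, and 8.43% and 8.83% in het. Receptors for these chemokines were at low levels. Of 22 chemokine receptors, 13 had a UMI in a kept well, and the list summed to 18.1 to 43.2 CPM. Cxcr2, the receptor of Cxcl1, Cxcl5 and Ppbp, was the most abundant, at 9.21 CPM in fetal, 14.9 in WT, 32.5 in het, 25.2 in Bud and 16.5 in Cys, and was called lower in fetal and higher in het and Bud against WT. Ccr9, the receptor of Ccl25, was at 2.21 to 5.46 CPM. Ccr6, Cxcr6 and Ccr10 had 2 UMIs or fewer in each library.

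Of 31 other chemokine ligands, 17 had a UMI. Cx3cl1, a membrane-bound chemokine, was at 38.9 CPM in fetal, 16.6 in WT, 24.3 in het, 19.5 in Bud and 29.1 in Cys. Cxcl17, a mucosal chemokine, was at 43.2 CPM in Cys and 3.92 in fetal with no UMI in WT, het or Bud, which put Cys at least 58.1-fold over WT. Against WT, 3 of 4 ligands tested were called higher in fetal and 1 lower (Ccl9), 4 of 5 were called higher in Cys, 3 of 5 in Bud and 1 of 4 in het, with all-gene shares called higher of 29.4%, 17.6%, 5.79% and 8.43%. Several of these calls came mostly from 1 well. In Bud, 1 well held 81.4% of the 70 UMIs of Cxcl10 and 71.4% of the 21 of Ccl6. Cxcl13 was less uneven, with UMIs in 17 Bud wells and 43.1% of its 65 UMIs in 1 of them. In Cys, 1 well held 90.0% of the 20 UMIs of Cxcl2 and 63.2% of the 38 of Ccl6.

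Of 22 NF-kappa-B pathway genes, 12 were called higher in fetal than in WT and 1 lower (Map3k7), against 29.4% and 22.3% of all genes, with a median log2 ratio of 0.38 against 0.06 over all genes. The feedback inhibitor Tnfaip3 was at 106 CPM in fetal against 10.2 in WT (10.4-fold, 7.59 to 14.7), the inducible cofactor Nfkbiz at 108 against 15.9 (6.83-fold, 5.27 to 8.97) and the subunit gene Nfkb2 at 126 against 34.9 (3.61-fold, 3.01 to 4.35). In Cys 6 were called higher and 4 lower, and these 10 of 22 are near the 39.7% of all genes called, with Nfkbiz at 103 CPM (6.52-fold, 5.02 to 8.59) and Bcl3 at 79.5 against 26.8 CPM (2.97-fold, 2.40 to 3.71). In Bud 2 of 22 were called higher and none lower, against 14.5% of all genes called, and in het 4 of 21 higher and 1 lower, against 17.3%.

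Of 22 cytokine and microbial receptors, 10 were called higher and 3 lower in fetal, and 9 higher and 4 lower in Cys, against WT, of 20 and 19 tested. Over all genes 29.4% were higher and 22.3% lower in fetal, and 17.6% higher and 22.0% lower in Cys, so the counts called lower were near or below the share over all genes. Il1r1, the interleukin 1 receptor, was at 22.0 CPM in fetal and 20.9 in Cys with no UMI in WT, het or Bud, and was at least 28.1-fold higher in Cys than in WT. Tnfrsf12a was at 210 CPM in fetal, 24.0 in WT, 36.6 in het, 34.3 in Bud and 112 in Cys. The interferon gamma receptor genes Ifngr1 and Ifngr2 were called lower in Cys, at 72.3 against 156 CPM and 92.1 against 216 CPM.

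Other immune signals of the epithelium were higher in fetal than in WT for 10 of 13 genes tested and lower for 1, against 29.4% and 22.3% of all genes. Lcn2, an iron-sequestering antimicrobial protein, was at 173 CPM in fetal and 0.248 in WT, and Csf1, a macrophage growth factor, at 69.0 and 0.743 CPM. Pigr, which carries antibodies across the epithelium, was the gene called lower, at 0.170 against 709 CPM. Il33, an alarmin, was at 240 CPM in fetal, 1.98 in WT, 1.14 in het, 21.9 in Bud and 1518 in Cys. In Cys 6 of 10 tested were called higher than in WT and none lower, against 17.6% and 22.0% of all genes.

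Of 11 sheddases and proteases, some of which release Cxcl16 from the membrane or cut chemokines, 5 were called higher and 1 lower against WT in both fetal and Cys, of 10 and 9 tested. Over all genes 51.7% were called in fetal, near the share of this list, and 39.7% in Cys. Adam17 was at 50.5 CPM in fetal, 32.7 in WT, 32.8 in het, 40.2 in Bud and 76.3 in Cys. Adam9 was at 107 CPM in fetal, 19.3 in WT, 27.5 in het, 34.5 in Bud and 89.7 in Cys. Dpp4, a peptidase of the enterocyte brush border that inactivates several chemokines, was the one called lower, at 3.24 CPM in fetal, 87.0 in WT, 78.3 in het, 29.1 in Bud and 0 in Cys.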

How the data were processed

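Per the labels' protocols, cells were dissociated with TrypLE, sorted into 384-well plates and sequenced by SORT-seq with CEL-Seq2 chemistry; STAR 2.6.1, featureCounts 1.5.2, Seurat 4.1.0 and GRCm38 are named in the submitters' processing notes, with no settings. The authors deposited, per library, a table of UMI counts per gene and well, a table of expected counts (the UMI counts corrected for chance reuse of the 4096 identifiers, as their values show) and a table of read counts, which was not used. UMI counts of wells with at least 1000 UMIs outside the ERCC spike-ins were summed per library and scaled to CPM. Each table lists only genes with a UMI, so an unlisted gene was taken as 0. CPM have exact Poisson intervals, shares Clopper-Pearson intervals and ratios exact conditional binomial intervals, all at 95%. UMIs are counted molecules of 1 plate per group, so these cover counting error only. Thinning drew 1000 UMIs per well at random. The ratio calls were tested on simulated data for het against WT with Poisson counting noise alone, where 200 of 200 genes with at least 50 UMIs in WT, given a fold of 2 or 4 in either direction, were called in that direction, and 141 of 11314 unchanged genes tested were called; 14443 genes were simulated. The simulated folds did not cover counts as low as those of Cxcl1, Ccl20 and Cxcl16 in WT (2, 12 and 21 UMIs). Nor did they cover UMIs gathered in a few wells, so they do not bear on those calls. No doublet caller was run, and all 384 well names are shared between libraries as plate positions. Alternatives were TMM scaling (edgeR 4.0.16), other minimums, the expected counts, equal weights per well and wells left out. Python 3.11.15, SciPy 1.17.1 and pandas 2.3.3 were used. The 7 genes and the 21 lists were chosen with earlier results of these data known. From each other list, genes were named if among the 4 with the largest log2 ratio (10 CPM added) of a comparison and at least 20 CPM in either library, and receptors, ligands of the members and others under that level were named for their role after their values were seen; the 3 genes most alike were named for members with a UMI in at least 10% of wells.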

Additional observations from a re-analysis of the deposited data

Results flagged for a closer look

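Wells under 1000 UMIs were left out above, and 3 of the 7 chemokines had more than 3 UMIs in such wells of a library. In the 13 fetal wells left out, Cxcl5 had 10 UMIs and Ppbp 5 of 6491, or 1541 CPM (739 to 2833) and 770 CPM (250 to 1798), and the intervals include the levels in the fetal wells kept (1087 and 946 CPM). Ccl25 had 8 UMIs in the 82 WT wells left out, or 251 CPM (108 to 494), and 12 in the 66 Bud wells left out, or 365 CPM (189 to 638), against 501 and 491 CPM in the wells kept. The WT interval ends just below the level in the wells kept, and the Bud interval includes it. In the 25 Cys wells left out, none of the 7 had a UMI among 12854.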

How the results depend on the processing

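No paired analysis was possible because each group is 1 library. Counts of called members stayed within 1.5 times under 66 of 68 alternatives. With het in place of WT as reference, where 20.7% of all genes tested were called, Bud had 2 members called and not 4, since Cxcl16 and Ccl28 lost their call, and the log2 ratio of Ccl28 turned from -0.88 to 0.017. With at least 50 UMIs required, het against WT had 1 member called and not 2, since Ccl20 was no longer tested. Equal weights per well ended the call of Cxcl16 in Bud, and leaving out the highest well that of Ccl20 in Bud; where a library had no UMI the pooled ratio was kept. Equal weights also moved folds by over 1.5 times for Cxcl16 in Cys (4.29-fold) and fetal (14.1-fold), Ccl20 in fetal (36.2-fold) and Bud (7.41-fold), Cxcl1 in Bud (12.9-fold), and the ratios to WT of Ccl25 (0.0222) and Ccl28 (0.190) in Cys. Under equal weights Bud over Cys moved to 6.71-fold for Cxcl1, 41.9-fold for Ccl25 and 2.63-fold for Ccl28, and fetal over Cys to 4.83-fold for Ccl28 and to 0.687 for Ccl25, which was not called either way. Without the highest well of each library Cxcl1 in fetal over WT was 353-fold, against 1 UMI left in WT. Cxcl5 in Cys over Bud, from 2 UMIs in Bud, ranged from 5.57-fold to 66.3-fold. TMM scaling moved the median of all genes by at most 0.08 on the log2 scale. Of 384 log2 ratios under alternatives, 313 stayed in the counting interval of the reported value, 70 left it, 28 of them with 1 CPM added, and 1 reversed. With wells over 100000 UMIs left out, which only Cys had, 33 stayed in it and 1 left it. Levels of 1 to 5 UMIs cannot be ranked.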
